A study of Mus musculus with 6 samples.

Results

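The genes described here are 35 that serve protein folding in the endoplasmic reticulum (ER) and the response to unfolded protein there, out of 34650 gene names on the array. They were taken by name, as every probe of the mouse array that carries 1 of the 35 names, which gave 46 probes. They fall into 4 classes. The first holds 4 genes for the stress sensors and the factor Xbp1, and the second 16 for chaperones, oxidoreductases and other folding factors. The third holds 8 for degradation and translocation at the ER membrane, and the fourth 7 for the branch of the transcription factor ATF4. All 35 were measured, 34 of them well above background on all 6 arrays, and no spot of theirs was marked as an outlier.

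RNA came from bone marrow of C57BL/6 mice, from 3 samples with the genotype Spred1 KO and 3 labelled wildtype (WT), each on its own array labelled with Cy3. Spred1 encodes an inhibitor of the Ras-ERK cascade. Sorting kept cells that lacked CD48 and lineage markers while carrying Sca-1 and c-Kit, which are mostly blood stem cells and early progenitors. The deleted part of Spred1, the age and sex of the animals, and whether the numbered samples of a genotype came from separate animals are not stated in the labels. The p-values below therefore speak only of the spread among these arrays, and part of it may be technical.

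Secretory and membrane proteins fold in the ER with the help of chaperones such as BiP, the product of Hspa5, and of disulphide isomerases. When unfolded protein builds up, the sensors IRE1, PERK and ATF6 start the unfolded protein response. IRE1 splices the mRNA of Xbp1, ATF6 is cut to release a transcription factor, and PERK phosphorylates eIF2alpha, which lowers translation while raising that of ATF4. XBP1 and ATF6 raise genes for chaperones and for ER-associated degradation, and ATF4 raises genes for amino acid supply and, under lasting stress, Ddit3. Haematopoietic stem cells are known for low rates of protein synthesis and for sensitivity to such stress.

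The promoters of these genes carry known letters for those factors. The ER stress element (ERSE) reads CCAAT, then 9 free bases, then CCACG, and binds NF-Y with ATF6 or XBP1. The shorter ERSE-II reads ATTGGNCCACG, the core of the XBP1 element reads TGACGTGG, and the composite element of C/EBP and ATF4 (CARE) was searched as TGATGNAA. Both strands of 300 bases around each annotated start were searched in the RefSeq promoters of build GRCm38.p6, which hold an entry for 30 of the 35 genes. Exact ERSE letters lay in the promoters of 10 of these 30 genes, and in 0.119% of all 32851 promoters. They were in 8 folding genes, Hspa5, Pdia6, Creld2, Hsp90b1, Calr, Ero1lb, Dnajc3 and Canx, and in 2 degradation genes, Syvn1 and Derl3. ERSE-II letters lay in 2 of the 30, Dnajb11 and Herpud1, against 0.0365% of all promoters. CARE letters lay in 3, Herpud1, Asns and Trib3, against 3.97% of all promoters. The XBP1 core lay in 0 of the 30, against 0.676% of all promoters. In these 30 genes no match of 1 motif overlapped a match of another. A match describes the letters and is no evidence that a factor binds, and some of these genes, Hspa5 among them, served to define the elements.

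Shown here are the 250 bases before the start of the 3 folding genes and the 1 ATF4 branch gene that hold a match and had the smallest p between the genotypes. Capitals mark the match, and all are written along the gene's own strand. Hspa5 lies at chr2:34771840-34772089 (plus strand), Pdia6 at chr12:17266339-17266588 (plus), Creld2 at chr15:88819396-88819645 (plus) and Asns at chr6:7693210-7693459 (minus).
Hspa5: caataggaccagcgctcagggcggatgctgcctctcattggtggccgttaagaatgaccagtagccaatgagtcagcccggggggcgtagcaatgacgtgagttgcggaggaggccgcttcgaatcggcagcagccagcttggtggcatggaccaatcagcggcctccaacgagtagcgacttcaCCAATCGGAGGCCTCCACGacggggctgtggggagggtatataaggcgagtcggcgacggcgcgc
Pdia6: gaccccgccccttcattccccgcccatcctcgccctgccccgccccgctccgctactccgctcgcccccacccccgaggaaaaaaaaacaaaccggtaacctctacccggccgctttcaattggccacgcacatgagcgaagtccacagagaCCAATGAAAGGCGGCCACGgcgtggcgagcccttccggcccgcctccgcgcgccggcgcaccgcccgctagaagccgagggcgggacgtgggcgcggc
Creld2: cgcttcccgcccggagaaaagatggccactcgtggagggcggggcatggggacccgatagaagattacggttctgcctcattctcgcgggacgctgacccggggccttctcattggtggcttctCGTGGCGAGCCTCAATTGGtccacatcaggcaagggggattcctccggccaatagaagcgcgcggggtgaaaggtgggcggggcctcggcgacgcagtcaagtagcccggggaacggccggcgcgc
Asns: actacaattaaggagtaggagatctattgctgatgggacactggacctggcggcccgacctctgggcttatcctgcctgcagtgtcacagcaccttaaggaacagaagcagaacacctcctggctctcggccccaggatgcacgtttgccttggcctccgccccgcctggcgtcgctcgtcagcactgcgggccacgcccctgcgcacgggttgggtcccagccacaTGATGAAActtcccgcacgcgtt

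The ERSE of Hspa5 lay at positions -65 to -47 and that of Pdia6 at -98 to -80, counted from 0 at the annotated start. The ERSE of Creld2 lay on the opposite strand at -126 to -108, so that its capitals read as the reverse complement. The CARE match of Asns lay at -23 to -16. Hsp90b1 was the one gene of the 30 with 2 ERSE matches, at -212 to -194 and at -107 to -89.

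**Figure D1:**
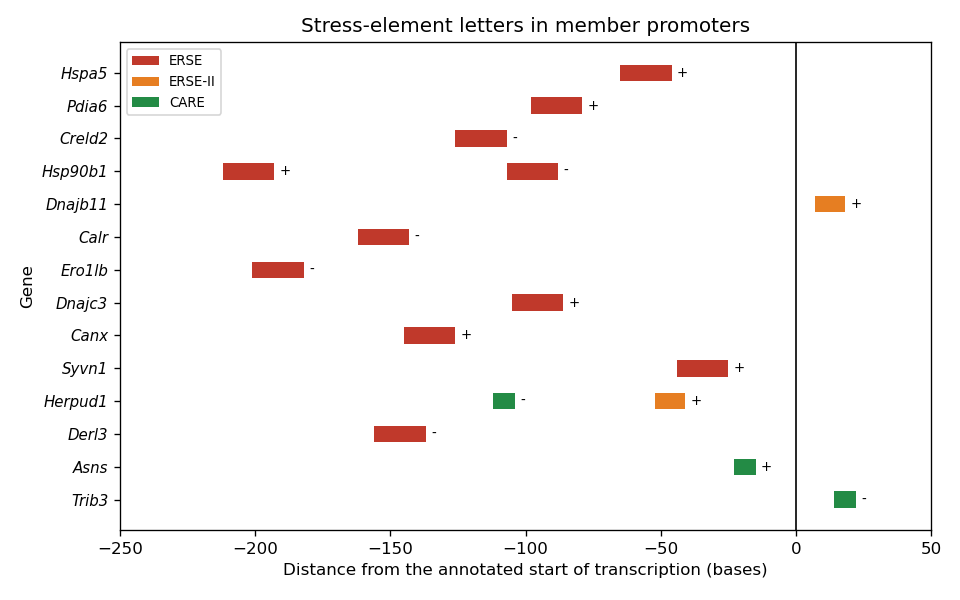
Positions of exact ERSE, ERSE-II and CARE letters in member promoters; the horizontal axis gives the distance from the annotated start of transcription in bases (0 is the start), each row is a gene, and the sign beside a bar gives the strand relative to the gene. All ERSE matches lie before the start, while the ERSE-II of Dnajb11 and the CARE of Trib3 lie after it.

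Some features of the arrays bear on the values that follow. Spred1 itself had 3 probes. The first read 0.18, 0.27 and 0.05 in KO, against 1.21, 1.11 and 1.12 in WT (-0.98 ± 0.09 SE, with an adjusted p of 0.0526 from limma over 27808 probes), the second stood at 90.7% of WT, and the third was 5.43-fold brighter in KO (adjusted p = 0.0128). The probes moved apart, and since the deleted part is not known here they do not check the labels. Signals are given as log2 intensity relative to the 75th percentile of the array, an intensity of 346 to 382 on KO arrays and 369 to 417 on WT arrays. Among genes expected in the gate, Kit, Ly6a, Cd34, Procr, Gata2 and Meis1 were well above background on every array. Cd48, on which the gate was negative, was also well above background on every array, at 0.829 to 1.15 times the 75th percentile in KO and 0.63 to 1.07 times in WT. Some lists of other cell types differed between arrays or genotypes. The median of 10 neutrophil markers lay at 0.08 to 0.53 on KO arrays relative to the WT mean, and at -1.68, 0.86 and 0.78 on WT replicates 1, 2 and 3. Their summed signal was 336 to 439 times the 75th percentile in KO. It was 102, 526 and 493 times on WT replicates 1, 2 and 3. The 7 gate genes summed to 282 to 297 times in KO and 295 to 307 times in WT. The neutrophil sum was thus the larger on every array but WT replicate 1. WT replicate 1 thus stood apart, and counts are given below with and without it. The summed signal of 8 monocyte and macrophage markers was 47.0 to 52.3 times the 75th percentile in KO and 42.4 to 45.1 times in WT, without overlap, and 0 of them were called. The summed signal of 5 mast cell and basophil markers was 4.55 times the 75th percentile on WT replicate 2. It was 0.21 and 0.22 times on WT replicates 1 and 3, and 0.36 to 1.45 times on KO arrays. The part of these lists in the values below was not tested. Slide 1 held replicates 1 and 2 of both genotypes and slide 2 replicate 3 of both, and the slides were scanned at different times.

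No member passed the adjusted threshold of 0.05 in the fit across all genes. With limma (KO minus WT, Benjamini-Hochberg over 19610 genes) 0 of the 35 members were called in either direction, against 0.0102% of all genes called lower and 0.0102% called higher. Adjusted p of the members lay between 0.364 and 0.993. Signal was lower in KO for 32 of the 35 members, against 51.7% of all genes, and the median difference was -0.18 on the log2 scale, against -0.01 over all genes. At an unadjusted limma p under 0.05, 7 members were lower in KO and 0 higher, against 5.24% of all genes lower and 6.96% higher. The KO arrays lay wholly below the WT arrays for 7 members and wholly above for 0, against 10.2% and 9.37% of all genes. Leaving out 1 array at a time, the members lower at an unadjusted p under 0.05 numbered 2, 5 and 1 without KO replicates 1, 2 and 3, against 3.37%, 6.21% and 2.76% of all genes in those fits. Without WT replicates 1, 2 and 3 they numbered 2, 13 and 1, against 2.95%, 6.24% and 4.21% of all genes. Members wholly below WT numbered 10, 13 and 9 without each KO replicate, against 15%, 18.8% and 13.6% of all genes, and 7, 21 and 8 without each WT replicate, against 14.6%, 19.4% and 15%. In the other direction, Ern1 lay wholly above WT without KO replicate 2 (19.6% of all genes did). Derl3 did so without WT replicate 3 (15.6% of all genes), where it was also higher at an unadjusted p under 0.05 (6.01% of all genes). Over single probes, 45 of the members' 46 were measured, of which 39 had lower values in KO and 0 were called, against 0.0324% of all probes. In bulk RNA, fewer cells of a type that makes a transcript and less of it per cell cannot be told apart.

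The share of genes with lower values in KO varied with brightness and with presence in the promoter table. In 5 equal bins of mean signal over all genes, it ran through 34.8%, 44.8%, 55.5%, 67.3% and 55.9% from the dimmest to the brightest. The members were 2, 3, 7, 10 and 13 in these bins, of which 2, 3, 7, 9 and 11 had lower values. Among the 10900 measured genes with an entry in the promoter table, 60.6% had lower values and the median difference was -0.04. The part of brightness or annotation in the members' values was not tested.

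**Figure D2:**
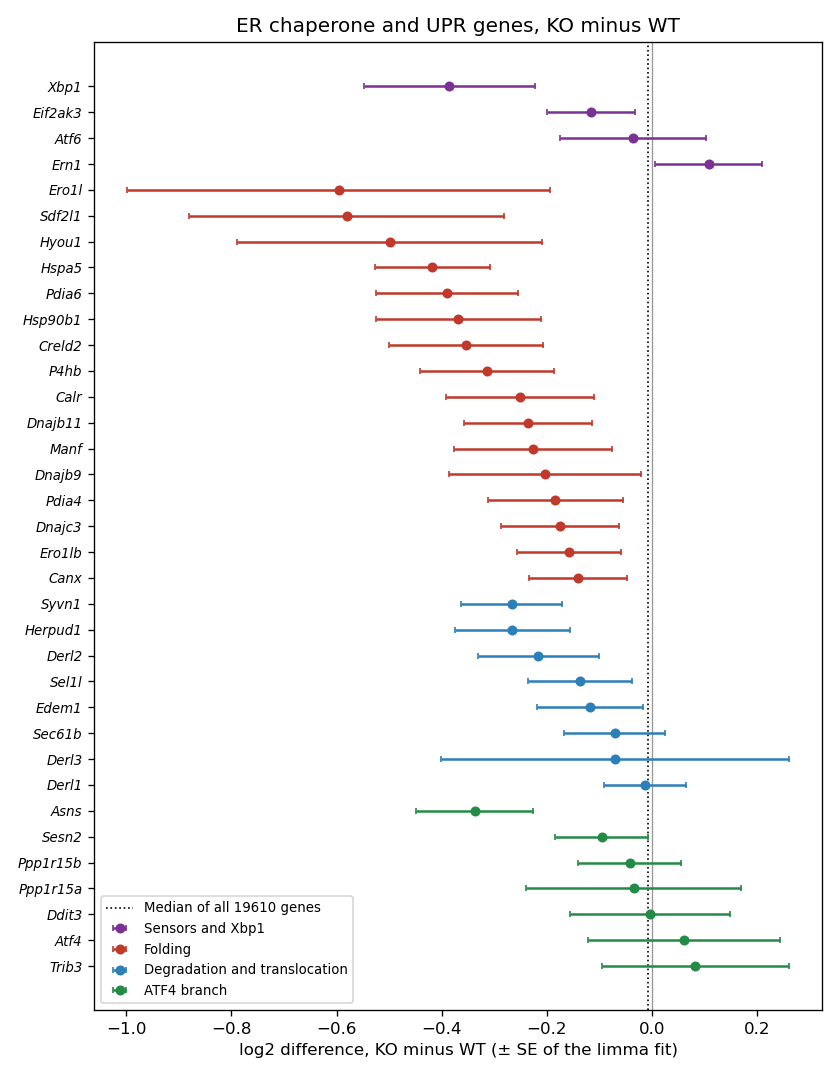
Difference of each member, KO minus WT, on the log2 scale (points) with the SE of the limma fit over 3 KO and 3 WT arrays (bars), coloured by class; the dotted line is the median of all 19610 genes. All 16 folding genes lie left of 0, while genes of the ATF4 branch other than Asns lie near it.

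The folding genes had the largest shift of the 4 classes. All 16 had lower values in KO, with differences between -0.60 and -0.14 and a median of -0.28, and none was called (adjusted p 0.364 to 0.643). Hspa5, which encodes the ER chaperone BiP, measured 5.42, 5.62 and 5.28 on the KO arrays, against 5.91, 5.78 and 5.89 on the WT arrays. Each KO array lay below each WT array, and mean signal stood at 74.8% of WT (-0.42 ± 0.11 SE, adjusted p = 0.364). Pdia6, a disulphide isomerase, measured 5.20, 5.34 and 5.29 in KO, against 5.77, 5.39 and 5.84 in WT (-0.39 ± 0.13 SE). The genotypes did not overlap, by a small margin between KO replicate 2 and WT replicate 2. Its second probe, at 17291323 to 17291382 on chromosome 12 (mm9), gave -0.34 ± 0.14 SE with an overlap of the genotypes.

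Creld2, an ER stress-induced protein with isomerase activity, measured 3.55, 3.53 and 3.49 in KO, against 3.84, 3.61 and 4.18 in WT (-0.35 ± 0.15 SE, adjusted p = 0.408). It is the last of the 3 folding genes without overlap. Hsp90b1, which encodes the ER paralogue of HSP90 known as GRP94, measured 4.46, 4.61 and 4.64 in KO, against 5.10, 4.60 and 5.11 in WT (-0.37 ± 0.16 SE). P4hb, the founding disulphide isomerase, measured 2.64, 2.89 and 2.85 in KO, against 3.22, 2.88 and 3.23 in WT (-0.31 ± 0.13 SE). For both genes WT replicate 2 lay among the KO arrays and the other WT arrays lay above all of them.

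The same arrangement recurred in smaller signals. Sdf2l1, a component of the BiP complex, measured -0.06, -0.24 and -0.08 in KO, against 0.53, -0.23 and 1.06 in WT (-0.58 ± 0.30 SE). Dnajb11, a co-chaperone of BiP, measured 2.004, 1.97 and 2.11 in KO, against 2.27, 2.05 and 2.46 in WT (-0.24 ± 0.12 SE). The spread over WT arrays was wider than that over KO arrays in both. Dnajb9, another BiP co-chaperone, had the largest p of the class, with 1.62, 2.10 and 1.82 in KO against 2.32, 2.09 and 1.75 in WT (-0.20 ± 0.18 SE, adjusted p = 0.643). Its second probe went the other way at 0.10 ± 0.14 SE.

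The other 8 folding genes had lower values with adjusted p between those of Dnajb11 and Dnajb9. The lectin chaperones Calr and Canx, which hold newly made glycoproteins, differed by -0.25 ± 0.14 SE and -0.14 ± 0.09 SE. Manf, a secreted ER stress protein, differed by -0.23 ± 0.15 SE, the co-chaperone Dnajc3 by -0.17 ± 0.11 SE, and the isomerase Pdia4 by -0.18 ± 0.13 SE. Hyou1, the large ER chaperone of the HSP110 type, differed by -0.50 ± 0.29 SE. Ero1l and Ero1lb, oxidases that feed disulphide formation, differed by -0.60 ± 0.40 SE and -0.16 ± 0.10 SE. Ero1l is the only member not well above background throughout, on 2 of 3 KO arrays and 3 of 3 WT arrays.

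WT replicate 2 was the array that brought the genotypes together. Its summed signal of mast cell and basophil markers was high, mostly through Prss34 and Mcpt8 (log2 signals of 1.53 and 0.44). Gzmb and Ms4a2 of the same list were not well above background on this array. The part of these markers in the folding values was not tested. Relative to the WT mean, the median folding gene lay at -0.36, -0.25 and -0.26 on the KO arrays, and at 0.08, -0.23 and 0.15 on WT replicates 1, 2 and 3. WT replicate 2 lay at or below the highest KO array for 12 of the 16 folding genes, WT replicate 1 for 0 and WT replicate 3 for 2. WT replicate 3 was the highest of the 3 WT arrays for 12 of the 16. As WT replicate 2 was picked out from these same values, the counts without it restate its position and add no separate support. Without WT replicate 2 the KO arrays lay below the WT arrays for 14 of the 16 folding genes and 21 of the 35 members, against 19.4% of all genes in that fit. The members lower at an unadjusted p under 0.05 were then 13, against 6.24% of all genes, and the folding median was -0.40, with 0 members called (lowest adjusted p 0.247). Without WT replicate 1, whose neutrophil markers were low, the folding median was -0.24, with 3 folding genes and 7 members not overlapping (14.6% of all genes) and 2 members at an unadjusted p under 0.05 (2.95% of all genes).

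**Figure D3:**
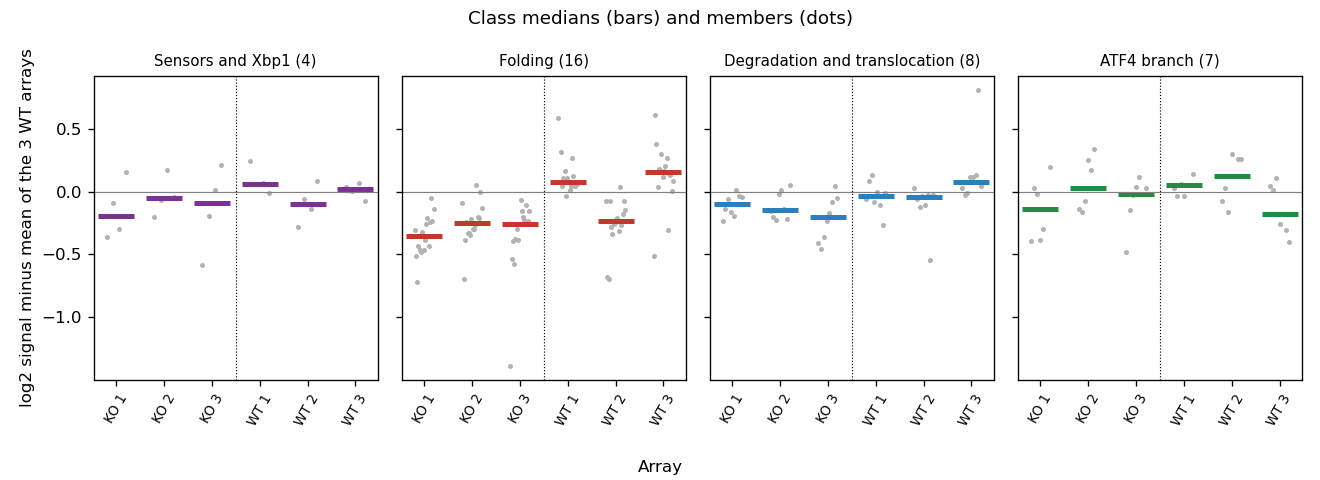
Log2 signal minus the mean of the 3 WT arrays for every member (grey dots) and the median of its class (bars), by array, for the 4 classes; the dotted line parts KO from WT arrays. In the folding class WT replicate 2 (-0.23) sits at the level of the KO arrays (-0.36 to -0.25), and in the ATF4 class WT replicate 3 (-0.18) is the lowest array.

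**Figure D4:**
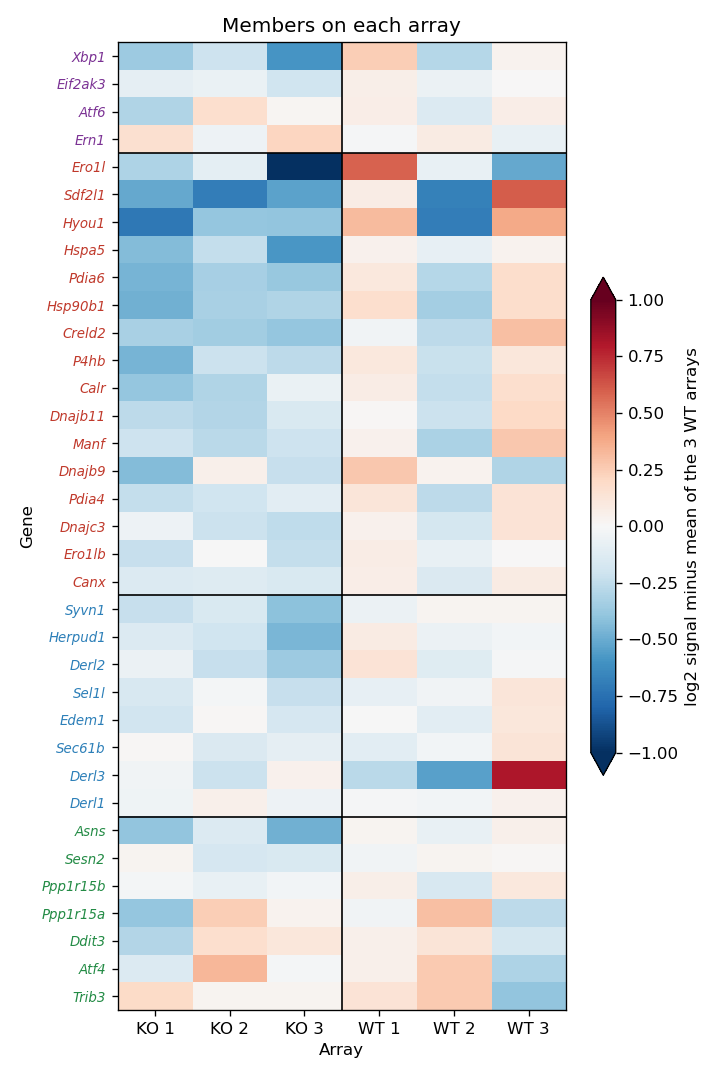
Each member (rows, by class and then by difference) on each array (columns, KO left and WT right), as log2 signal minus the mean of the 3 WT arrays; blue is lower and red is higher, and colours saturate at 1 in either direction. Folding genes are blue on most KO arrays and on WT replicate 2, while most genes of the ATF4 branch change colour from array to array within a genotype.

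The sensor class had lower values in 3 of 4 genes (median -0.08) and none called (adjusted p 0.412 to 0.921). The count was 2 of 4 where the 75th percentile was taken over probes above background on all arrays, and also without KO replicate 1. Ern1, which encodes the kinase and nuclease IRE1alpha, measured 2.14, 1.93 and 2.19 in KO, against 1.96, 2.06 and 1.91 in WT (0.11 ± 0.10 SE, adjusted p = 0.658). It is 1 of 3 members with a higher mean in KO, and its 3 dimmer probes gave -0.07, 0.07 and 0.07 with larger errors. Eif2ak3, the gene of PERK, measured 0.41, 0.44 and 0.30 in KO, against 0.56, 0.44 and 0.50 in WT (-0.12 ± 0.08 SE). Its genotypes did not overlap, though KO replicate 2 and WT replicate 2 round to the same value. Atf6 measured -1.74, -1.27 and -1.43 in KO, against -1.38, -1.58 and -1.37 in WT (-0.04 ± 0.14 SE), with full overlap.

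Xbp1, the target of IRE1 and a factor for chaperone and secretory genes, had the largest difference in this class. It measured 4.85, 5.01 and 4.63 in KO, against 5.46, 4.93 and 5.25 in WT (-0.39 ± 0.16 SE, 76.6% of WT, adjusted p = 0.412). As among the folding genes, WT replicate 2 lay between KO arrays and the other WT arrays lay above all of them. Splicing of the Xbp1 mRNA was not analysed here.

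Genes of ER-associated degradation and translocation had lower values in KO in 8 of 8 cases, with a median difference of -0.13 and none called (adjusted p 0.382 to 0.952). The count was 5 of 8 within slide 1, 6 of 8 without WT replicate 3, and 7 or 8 of 8 under the other alternatives. Syvn1, the ubiquitin ligase HRD1, measured 4.18, 4.25 and 3.998 in KO, against 4.35, 4.44 and 4.44 in WT (-0.27 ± 0.10 SE). Herpud1, a membrane protein of the same ligase complex, measured 3.40, 3.34 and 3.08 in KO, against 3.62, 3.48 and 3.51 in WT (-0.27 ± 0.11 SE, adjusted p = 0.408). Both were lower on each KO array than on each WT array. Derl2, which takes part in export of proteins from the ER, measured 3.02, 2.85 and 2.72 in KO, against 3.22, 2.96 and 3.07 in WT (-0.22 ± 0.12 SE), and its other 2 probes gave -0.20 and -0.16.

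Its relative Derl1 did not show this on its brightest probe, with 2.04, 2.13 and 2.03 in KO against 2.06, 2.05 and 2.12 in WT (-0.01 ± 0.08 SE, adjusted p = 0.952). The second Derl1 probe, at 57703097 to 57703156 on chromosome 15 (mm9), measured 1.06, 1.10 and 0.99 in KO, against 1.37, 1.22 and 1.30 in WT, without overlap (-0.24 ± 0.09 SE, adjusted p = 0.403 over probes). The 2 probes of this gene therefore disagree in size. The adaptor Sel1l differed by -0.14 ± 0.10 SE, the mannosidase-like Edem1 by -0.12 ± 0.10 SE and the translocon subunit Sec61b by -0.07 ± 0.10 SE. Derl3 differed by -0.07 ± 0.33 SE, with WT arrays between -2.59 and -1.24, and by 0.33 ± 0.13 SE without WT replicate 3. Over 17 tested alternatives its sign turned in 4 and that of Derl1 in 7. Within slide 1 the class median was -0.03 and within slide 2 it was -0.35.

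The ATF4 branch stayed near the median of all genes apart from Asns. Its class median was -0.03, with 5 of 7 genes lower and none called (adjusted p 0.377 to 0.993). Where the 75th percentile was taken over probes above background on all arrays, 2 of 7 were lower and the median was 0.0088. Without KO replicate 1 and without WT replicate 2, 3 of 7 were lower, with medians of 0.027 and 0.060. Under the other tested alternatives 4 to 6 of 7 were lower. Asns, the asparagine synthetase and a classical ATF4 target, measured 1.98, 2.24 and 1.90 in KO, against 2.41, 2.30 and 2.42 in WT. Its genotypes did not overlap (-0.34 ± 0.11 SE, 79.2% of WT, adjusted p = 0.377). Sesn2, a stress-induced regulator of mTORC1, measured 1.90, 1.71 and 1.73 in KO, against 1.84, 1.90 and 1.89 in WT (-0.10 ± 0.09 SE). Ddit3, the factor CHOP linked to cell death under ER stress, measured 0.10, 0.56 and 0.51 in KO, against 0.44, 0.52 and 0.21 in WT, with a difference of -0.0034 ± 0.15 SE. Here KO replicate 1 and WT replicate 3 were low and the other 4 arrays lay together.

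The remaining ATF4 branch genes overlapped between the genotypes. Atf4 itself differed by 0.06 ± 0.18 SE on its brightest probe and by -0.22 ± 0.26 SE on the other. Trib3, a pseudokinase that ATF4 and CHOP raise, differed by 0.08 ± 0.18 SE. The regulatory subunits that bring a phosphatase to eIF2alpha, Ppp1r15a and Ppp1r15b, differed by -0.03 ± 0.20 SE and -0.04 ± 0.10 SE. Relative to the WT mean, the class median was -0.14, 0.03 and -0.02 on the KO arrays and 0.05, 0.13 and -0.18 on the WT arrays. The median of 8 immediate early genes, which respond fast to stimulation, was -0.98, 0.13 and -0.53 on the KO arrays and 0.04, 0.31 and -0.33 on the WT arrays, so that KO replicate 1 was the lowest KO array and WT replicate 3 the lowest WT array in both lists. All 8 immediate early genes had lower values in KO and 0 were called, and their part in these values was not tested. The class median was 0.29 within slide 2 and -0.09 within slide 1.

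**Figure D5:**
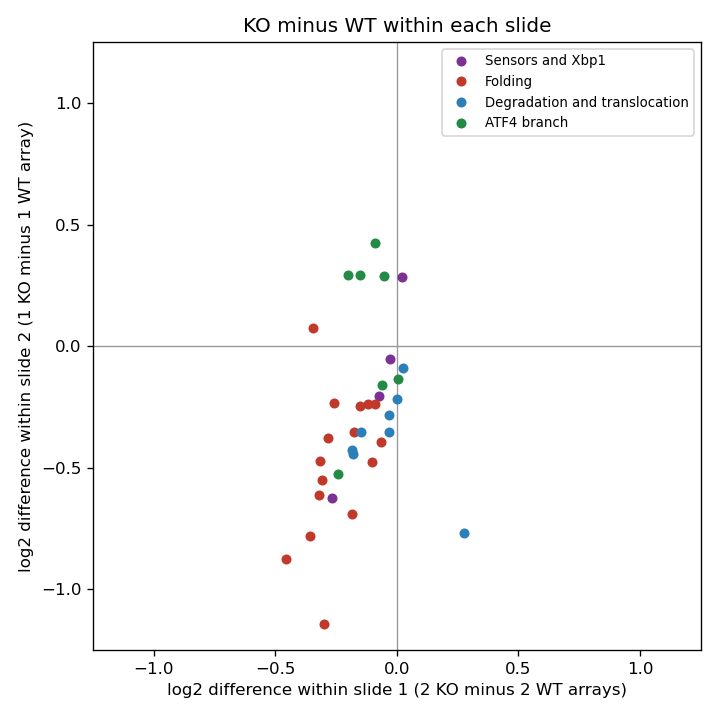
Log2 difference of each member within slide 1 (horizontal, mean of 2 KO minus mean of 2 WT arrays) and within slide 2 (vertical, 1 KO minus 1 WT array), coloured by class. Of the 16 folding genes all lie left of 0 and 15 lie below 0 (medians -0.27 and -0.43), while 4 of the 7 ATF4 genes lie above 0 on slide 2.

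Within slides the folding genes kept their side. The 16 differences were all below 0 on slide 1 (2 arrays against 2) and 15 of 16 on slide 2 (1 against 1, with no test), where Dnajb9 had the higher value in KO. All folding genes measured also had lower values under each normalization, filter and probe choice that was run and with each array left out. Some of these alternatives could hardly differ. A filter changes only which genes are kept, and 13 of the 16 folding genes have 1 probe. The deposited table differs by 1 constant per array, with a folding median of -0.28 as in the main fit. Agreement under those settings adds no separate support. Differences between the classes themselves were not tested.

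Over all members with a promoter entry, the median difference was -0.26 for the 10 with exact ERSE letters, all with lower values, and -0.16 for the 20 without, of which 17 had lower values. Within the folding class, genes with exact ERSE letters had a median difference of -0.30 (8 genes) and those with an entry but no exact match one of -0.27 (6 genes). Neither difference was tested. Outside the 35 members, 9 measured genes had an ERSE in the promoter table, of which 5 had lower and 4 higher values in KO, with a median of -0.04. Of 6 other genes with ERSE-II letters, 5 had lower values (median -0.09), and of 309 other genes with CARE letters 165 did (median -0.02). These values compare with 60.6% and -0.04 over all measured genes in the promoter table.

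Genes that neighbour the members in the same pathways mostly had lower values in KO and were not called either. Of 128 further genes in 7 lists, 123 were measured, 108 had lower values in KO, against 51.7% of all genes, and 0 passed the adjusted threshold in either direction. At an unadjusted p under 0.05, 19 were lower and 0 higher, against 5.24% and 6.96% of all genes. N-glycosylation genes had lower values in 14 of 14 cases (median -0.17), as in Rpn2 (-0.24 ± 0.10 SE) and Ostc (-0.27 ± 0.12 SE), which encode parts of the oligosaccharyltransferase. Genes of ER-to-Golgi transport did so in 16 of 17 cases (median -0.18), as in the cargo receptor subunit Mcfd2 (-0.32 ± 0.11 SE) and the coat protein Sec13 (-0.30 ± 0.11 SE). Translocon and signal peptidase genes did so in 15 of 16 cases (median -0.14), with the translocon-associated Ssr2 at -0.29 ± 0.12 SE and Ssr3 at -0.17 ± 0.09 SE.

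Other folding genes had lower values in 17 of 20 cases (median -0.10), with Pdia5 at -0.48 ± 0.12 SE (adjusted p = 0.364) and the ATPase Hspa13 at -0.40 ± 0.11 SE. Other degradation genes did so in 18 of 20 cases (median -0.09), with the ubiquitin ligase Rnf5 at -0.35 ± 0.11 SE and Aup1 at -0.26 ± 0.11 SE. Of the other stress kinases and membrane-bound factors 8 of 11 had lower values (median -0.18). The smallest p of the 123 measured belonged to Atf6b, the close relative of Atf6 (-0.47 ± 0.10 SE, adjusted p = 0.363), and Creb3l2 followed in its list (-0.28 ± 0.09 SE). Further ATF4 targets had lower values in 20 of 25 cases (median -0.16), with Gpt2, an alanine transaminase, at -0.47 ± 0.11 SE and the stress protein Nupr1 at -0.96 ± 0.25 SE. Their median lay further from 0 than that of the 7 branch members, a difference that was not tested.

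Plasma cells carry an expanded ER. Of 7 plasma cell markers on the array, 5 to 6 were well above background on KO arrays and 5 to 6 on WT arrays, and Tnfrsf17, the maturation antigen of these cells, was on none. Their summed signal was 1.46 to 2.16 times the 75th percentile in KO and 1.17 to 1.90 times in WT, so that the ranges overlapped. Of the B cell markers, Pax5, Ebf1 and Igll1 were not well above background on any array. The part of such cells in the values above was not tested.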

How the data were processed

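Scans were quantified in Agilent Feature Extraction 10.7.3.1 according to the submitters' processing notes and the file headers. The deposited intensity of each spot was corrected for background and for trends within the array, with surrogate values near background, per the file headers. In the authors' deposited value table each array's intensity is scaled by its own constant, linear and not centred (medians 0.0638 to 0.075), and this table served as an alternative. Deposited flags, given as other values, mark outliers, saturation and spots well above background.

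Of 59305 spots other than controls, 92 to 155 per array were marked as outliers and left out, and 0 were saturated. Spots of a probe were averaged as log2 intensity minus the array's 75th percentile. The brightest probe stood for a gene name, and genes well above background on all 3 arrays of a genotype were kept (19610 genes, 27808 probes). A probe counted as above background where at least 0.5 of its spots were. KO minus WT was fitted with lmFit and eBayes (limma 3.58.1, R 4.3.3), and p-values were adjusted by Benjamini-Hochberg over all genes. The fit was tested on simulated data, and no error rate or power from that is given here. The number of arrays limits the precision.

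The members, lists and motifs were chosen with earlier results of these data known. Values on every array are given for the 12 members of smallest p, for 2 of smallest and 1 of largest p in each class, and for all 4 of the sensor class. From each list of other pathway genes the 2 of smallest p are named. Marker lists of other cell types and gate genes are given as counts and ranges, and the genes named from them, like the features named with a motif, were chosen after their values were seen. Positions of probes are on mm9 and promoters are from RefSeq on GRCm38.p6. Alternatives were other normalizations, filters and probe choices, slide and replicate blocks, array weights and leaving out each array.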

Additional observations from a re-analysis of the deposited data

How the results depend on the processing

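No member was called in any fit that was run, with the lowest adjusted p between 0.247 and 0.811 over all alternatives. The members with lower values in KO numbered 27 to 33 of 35, or 31 of the 34 well above background on all 6 arrays, with 27 when the 75th percentile was taken over probes above background on all arrays, where 42.05% of all genes were lower. All genes called higher and lower numbered 2 and 2. They were 1 and 0 under quantile normalization, under that other percentile, and among genes above background on all arrays, and 0 and 0 with no filter and within slide 1. They were 5 and 5 under normexp with quantile normalization, and 5 and 4 with the mean of all probes. With array weights 5 were called higher, and with the slide as a block 1 was called lower. With the replicate block the counts were 0 and 0. Same-numbered arrays of the genotypes correlated in their deviations by -0.03, 0.15 and 0.07, so the numbers are not taken as pairs; the block left 5 members lower at an unadjusted p under 0.05, against 7 without it. That count was 4 under quantile normalization, under the other percentile and with no filter, and 0 within slide 1, where 2 arrays stand against 2. The median of all members was -0.35 within slide 2, of the degradation class -0.032 within slide 1 and -0.35 within slide 2, and of the ATF4 class 0.29 within slide 2 and 0.0088 under the other percentile; the cause was not tested. With each array left out in turn, genes called ranged from 0 to 5 higher and 0 to 2 lower, members at an unadjusted p under 0.05 from 1 (without KO replicate 3 or WT replicate 3) to 13 (without WT replicate 2), and members without overlap from 7 to 21 (13 without KO replicate 2), while the share of all genes without overlap and lower ranged from 13.6% to 19.4%, against 10.2% with all arrays. Medians then ranged from -0.26 to -0.14 for all members, -0.14 to -0.024 for the sensor class, -0.40 to -0.23 for folding, -0.21 to -0.070 for degradation and -0.093 to 0.060 for the ATF4 class.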
